A study of Mus musculus with 8 samples.

Results

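The 9 genes described here encode the enzymes and the transporter that make the acylceramides of the skin barrier: Elovl1, Elovl4, Cers3, Alox12b, Aloxe3, Abca12, Pnpla1, Cyp4f39 and Ugcg. They were taken by symbol from the 46517 genes of the deposited expression table, each matched 1 row, and all 9 passed the filter on low values. Acylceramides are ceramides that carry an ultra-long fatty acid chain with linoleic acid at its far end. They are built in the upper, differentiating layers of the epidermis and secreted from lamellar bodies, where they form the lipid lamellae of the stratum corneum and the lipid envelope of the corneocyte. Loss of single steps of this pathway is known to cause ichthyosis or a lethal barrier defect, and very-long-chain lipids are also products of the sebaceous gland.

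The RNA came from hair follicle stem cells, the bulge cells that renew the hair, sorted from the back skin of 8 male mice aged 70 days, in the second telogen (rest phase). NFIB/X-dKO mice (animals 33 and 36) carried Sox9-CreER with NFIBfl/fl and NFIXfl/fl. NFIB-cKO mice (animals 81 and 85) carried Sox9-CreER with NFIBfl/fl, and NFIX-cKO mice (animals 32 and 88) carried Sox9-CreER with NFIXfl/fl and also 1 floxed Nfib allele, NFIBfl/+. WT mice (animals 34 and 82) carried NFIBfl/fl and NFIXfl/fl with no Cre listed. All 4 groups carried the R26-YFPfl/fl reporter, and all carried floxed Nfib alleles. Both targeted genes, Nfib and Nfix, code for nuclear factor I proteins, which bind DNA and regulate transcription. Cells were sorted as negative for DAPI and Sca-1 and positive for integrin alpha 6 and CD34, and the 3 knockout groups also for YFP. Sox9-CreER is a Cre recombinase fused to part of the oestrogen receptor and driven by Sox9. The labels name no inducing agent. WT cells came from mice with no Cre listed and were not sorted for YFP, so Cre, the YFP gate and the deletion cannot be told apart in a comparison with WT.

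Each group held 2 libraries, and expected counts, used for 5 libraries, totalled 57173266 to 66854625 per library. All 10 stem cell markers looked up were present, with Cd34 between 811 and 1144 TPM (transcript abundance per length, scaled to the same total in every library) and Krt15 between 7507 and 14487 TPM. Under 1 TPM in every library were 3 of 4 endothelial, 4 of 6 fibroblast and 3 of 6 immune markers, but 0 of 6 melanocyte markers. Col1a1, a fibroblast marker, was at 53.3 and 65.1 TPM in NFIB/X-dKO and 77.3 and 55.1 TPM in NFIB-cKO. It was at 14.6 and 8.27 TPM in NFIX-cKO, against 12.2 and 16.65 TPM in WT. Col1a2, another, went the other way in NFIB/X-dKO, at 2.17 and 2.81 TPM, against 11.8 and 8.01 TPM in WT. Whether such cells passed the sort was not tested. Nfib was at 377 and 389 TPM in NFIB/X-dKO and 293 and 233 TPM in NFIB-cKO, against 230 and 209 TPM in WT. Nfix was at 125 and 148 TPM in NFIB/X-dKO and 138 and 123 TPM in NFIX-cKO, against 158 and 157 TPM in WT. The Nfib total was above both WT values in all 4 libraries labelled as NFIB-deleted. These are totals over the whole gene, and since the deleted part is not named in the labels they do not check the deletions. Animal numbers fell in the 30s (both NFIB/X-dKO libraries, NFIX-cKO 32 and WT 34) and the 80s (both NFIB-cKO libraries, NFIX-cKO 88 and WT 82). The labels do not say what the numbers mark, and Abca12 differed along this split, as described below.

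Elovl4 was the gene of the set that changed. It encodes the elongase that makes the ultra-long acyl chain of acylceramides, and its RNA fell below 0.23 times the WT level in both groups with NFIB deleted. Elovl4 was at 20.8 and 17.7 TPM in NFIB/X-dKO, 19.9 and 17.5 TPM in NFIB-cKO and 50.8 and 47.9 TPM in NFIX-cKO, against 69.8 and 98.2 TPM in WT. The NFIB/X-dKO and NFIB-cKO values overlapped, the NFIX-cKO values lay between, and both WT values were above every knockout library. Group means were 19.2 ± 2.2 TPM in NFIB/X-dKO, 18.7 ± 1.7 TPM in NFIB-cKO and 49.4 ± 2.0 TPM in NFIX-cKO, against 84.0 ± 20.1 TPM in WT (SD, n = 2 each). Since these are bulk samples, fewer Elovl4-expressing cells and less Elovl4 RNA per cell cannot be told apart.

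In limma on log2(TPM + 1), with Benjamini-Hochberg adjustment over 15434 genes, Elovl4 fell by 2.05 ± 0.19 (SE) in NFIB/X-dKO against WT, with an adjusted p of 0.0048. It fell by 2.09 ± 0.19 in NFIB-cKO against WT, with an adjusted p of 0.0085. These 2 comparisons share the WT libraries. In NFIX-cKO against WT the log2 difference was -0.73 ± 0.19, which did not pass the test (limma adjusted p = 0.457), although the 2 groups did not overlap. The ratio of the mean TPM to that of WT was 0.229 in NFIB/X-dKO, 0.222 in NFIB-cKO and 0.588 in NFIX-cKO. Against the WT library of the same animal number series, the log2 difference was -1.81 in NFIB/X-dKO (30s), -2.34 in NFIB-cKO (80s) and, in NFIX-cKO, -0.45 (30s) and -1.02 (80s).

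The 4 libraries with NFIB deleted in both alleles (NFIB/X-dKO and NFIB-cKO) were also compared with the 4 that kept at least 1 unfloxed allele or had no Cre (NFIX-cKO and WT), a comparison with 2 libraries of each animal number series on either side. Elovl4 fell by 1.71 ± 0.13 on the log2 scale (adjusted p = 0.0036), and its mean was 19.0 TPM in the NFIB-deleted libraries, against 66.7 TPM in the NFIB-retaining libraries. Within the 30s the difference was -1.58 and within the 80s it was -1.83. Between NFIB/X-dKO and NFIX-cKO, with expected counts of 2212 and 1996 in NFIB/X-dKO, against 5932 and 6259 in NFIX-cKO, edgeR's quasi-likelihood test gave a log2 fold change of -1.61 and an adjusted p of 0.0457 over 18349 genes, and limma on the TPM gave -1.32 ± 0.19 (adjusted p = 0.0389). Between NFIB/X-dKO and NFIB-cKO the log2 difference was 0.04 ± 0.19 (adjusted p = 0.907, limma), and it was -0.15 after median-of-ratios scaling. That comparison sets 30s libraries against 80s libraries throughout, and the difference was 0.24 with the animal number series as a covariate. The non-additive contrast subtracts the difference of NFIX-cKO from WT from the difference of NFIB/X-dKO from NFIB-cKO. It was 0.77 ± 0.27 for Elovl4 and did not pass the test (adjusted p = 0.509).

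The Elovl4 calls against WT rested on few libraries. Without NFIB/X-dKO 36 the adjusted p of NFIB/X-dKO against WT was 0.0534, with a log2 difference of -1.94. For NFIB-cKO against WT the adjusted p was 0.0841 without NFIB-cKO 81, with a difference of -2.18, and 0.0955 without NFIB-cKO 85, with a difference of -2.005. In NFIB/X-dKO against NFIX-cKO the edgeR adjusted p was 0.305 without NFIB/X-dKO 33 and 0.438 without NFIB/X-dKO 36. In the comparison of the 4 NFIB-deleted with the 4 NFIB-retaining libraries Elovl4 passed under all 13 alternatives that gave a test, with adjusted p between 0.0029 and 0.0263.

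**Figure D1:**
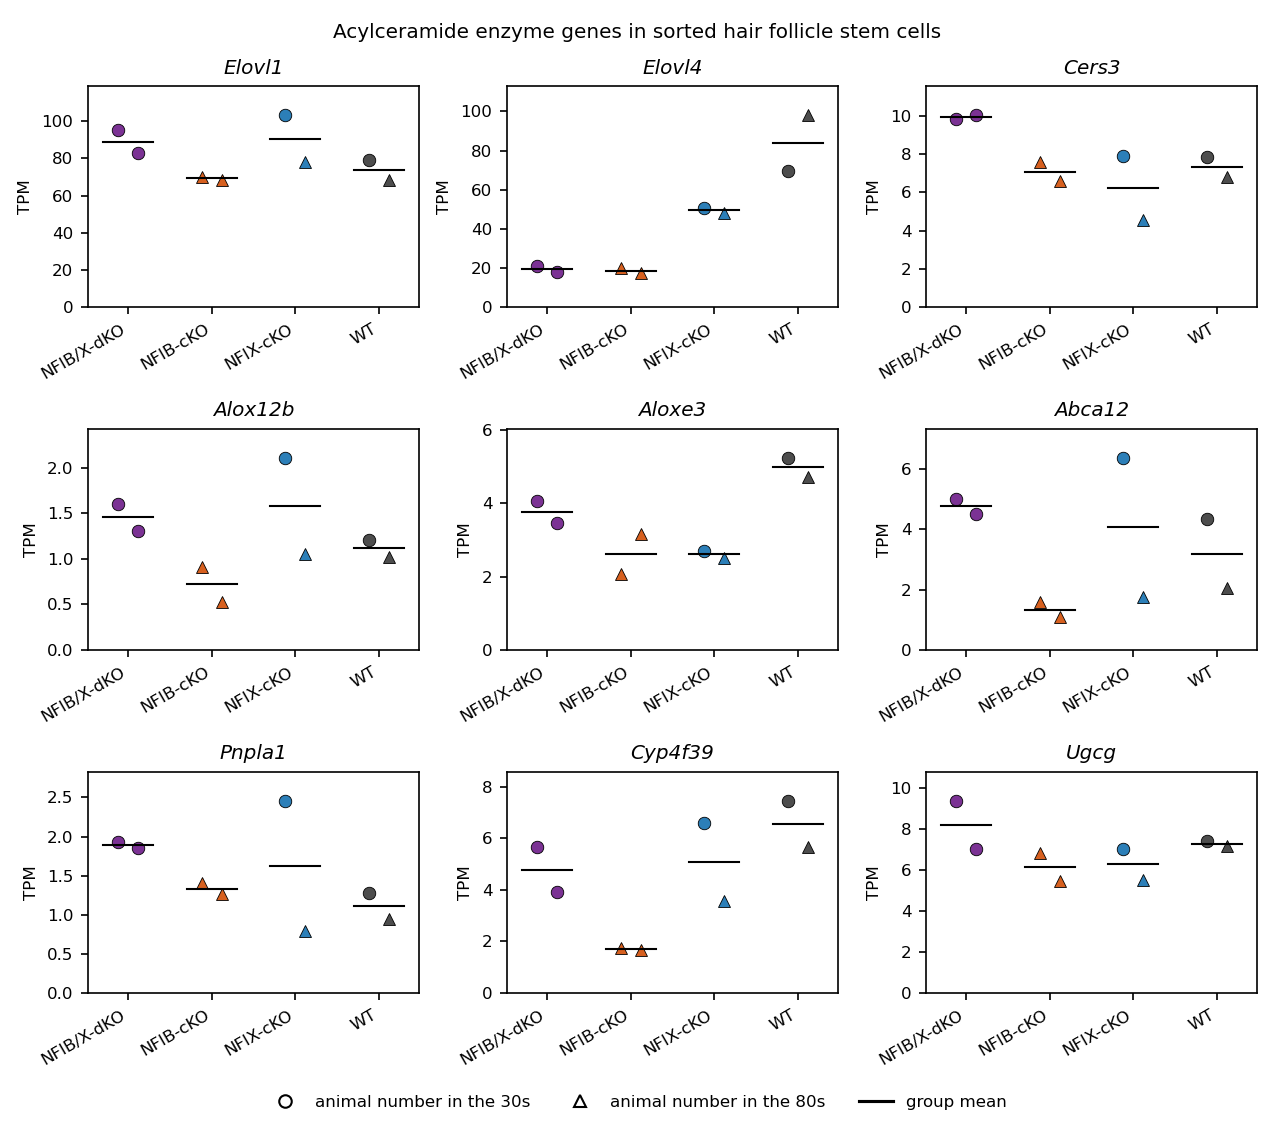
TPM of the 9 genes in each library, by group, with circles for animal numbers in the 30s, triangles for the 80s and bars for the group mean (n = 2). Elovl4 lies between 17.5 and 20.8 TPM in the 4 NFIB-deleted libraries and between 47.9 and 98.2 TPM in the other 4, while Abca12 and Pnpla1 spread widely between the 2 NFIX-cKO libraries.

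Elovl4 lies on chromosome 9 (83778692 to 83806277, minus strand, GRCm38, GENCODE M21). Elovl1, the elongase that acts on shorter very-long chains and supplies precursors for Elovl4, lies on chromosome 4 (118428093 to 118432953, plus strand). Their promoter windows are shown because 1 elongase fell where NFIB was deleted and the other did not pass the test. The windows are 300 bases around the RefSeq start on GRCm38.p6, given 5′ to 3′ on the gene's strand. Capitals mark matches on either strand to TTGGC, the half-site of the nuclear factor I motif, or to GCCNNNGGC, the AP-2 motif.
Elovl4, chr9:83806256-83806555, minus strand: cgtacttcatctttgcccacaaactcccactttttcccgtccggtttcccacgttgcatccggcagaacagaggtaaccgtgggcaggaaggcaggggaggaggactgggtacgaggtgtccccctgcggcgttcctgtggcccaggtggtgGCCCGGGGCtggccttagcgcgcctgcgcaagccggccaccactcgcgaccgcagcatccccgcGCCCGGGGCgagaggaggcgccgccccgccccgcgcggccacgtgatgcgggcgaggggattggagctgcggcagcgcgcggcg
Elovl1, chr4:118427843-118428142, plus strand: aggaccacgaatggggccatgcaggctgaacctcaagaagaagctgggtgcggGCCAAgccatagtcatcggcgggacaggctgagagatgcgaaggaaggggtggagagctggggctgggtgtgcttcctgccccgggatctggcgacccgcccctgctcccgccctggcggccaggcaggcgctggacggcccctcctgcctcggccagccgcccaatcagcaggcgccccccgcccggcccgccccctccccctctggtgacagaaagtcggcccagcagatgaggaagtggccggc
The Elovl4 window held 0 half-sites and 2 AP-2 matches, whose first bases lie at -98 and -34 from the start. The Elovl1 window held 1 half-site at -197 and 0 AP-2 matches. A second Elovl1 window (chr4:118429451-118429750) held 2 half-sites, at -218 and -136. Of all 32851 windows in the table, 46.7% held the half-site and 16.6% the AP-2 motif, so neither is rare. The full palindrome, TTGGC and GCCAA with 5 bases between them, was in 0.0365% of windows and in none of the 9 windows of the set. Windows were found for 8 of the 9 genes. Among the others, Pnpla1 held 2 half-sites (-223 and -110), Alox12b 1 half-site that overlaps 1 AP-2 match at -12, and Ugcg 1 AP-2 match at -88, while Abca12, Cers3 and Cyp4f39 held no match.

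Elovl1 was the most abundant gene of the set in every library outside WT. It was at 95.4 and 82.6 TPM in NFIB/X-dKO, 70.1 and 68.3 TPM in NFIB-cKO and 103 and 77.8 TPM in NFIX-cKO, against 79.2 and 68.2 TPM in WT. All 8 libraries fell within a 1.52-fold range, the narrowest of the 9 genes, and both NFIB/X-dKO libraries lay above both WT libraries. The log2 difference was 0.27 ± 0.17 in NFIB/X-dKO (adjusted p = 0.444), -0.09 ± 0.17 in NFIB-cKO (adjusted p = 0.900) and 0.28 ± 0.17 in NFIX-cKO (adjusted p = 0.830), each against WT by limma. In WT the Elovl1 and Elovl4 levels overlapped, whereas in every knockout group, NFIX-cKO included, each Elovl1 value was above each Elovl4 value.

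Cyp4f39 had the next largest difference. The human counterpart of this cytochrome P450, CYP4F22, hydroxylates the far end of the ultra-long chain so that linoleic acid can be attached there. Cyp4f39 was at 5.67 and 3.90 TPM in NFIB/X-dKO, 1.75 and 1.66 TPM in NFIB-cKO and 6.61 and 3.56 TPM in NFIX-cKO, against 7.47 and 5.65 TPM in WT. Both NFIB-cKO libraries were below all 6 others, and the NFIB/X-dKO and WT values overlapped. The log2 difference of NFIB-cKO against WT was -1.47 ± 0.30, with a limma adjusted p of 0.0924, and the ratio of means was 0.26. Against WT it was -0.39 ± 0.30 in NFIB/X-dKO (adjusted p = 0.509) and -0.35 ± 0.30 in NFIX-cKO (adjusted p = 0.903). In the NFIB-deleted against the NFIB-retaining libraries it was -0.76 ± 0.21 (adjusted p = 0.140), and only with the animal number series as a covariate did it pass (adjusted p = 0.0326). Within the 30s that difference was -0.49 and within the 80s it was -1.03. NFIB/X-dKO exceeded NFIB-cKO by 1.08 ± 0.30 (adjusted p = 0.255), but that comparison sets 30s libraries against 80s libraries throughout. With the number series as a covariate, estimated from the WT and NFIX-cKO libraries alone, it was 0.54 (adjusted p = 0.843).

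Cers3 encodes the ceramide synthase that joins ultra-long acyl chains to the sphingoid base. Cers3 was at 9.83 and 10.0 TPM in NFIB/X-dKO, 7.58 and 6.58 TPM in NFIB-cKO and 7.89 and 4.54 TPM in NFIX-cKO, against 7.85 and 6.81 TPM in WT. Both NFIB/X-dKO libraries were above the other 6, and the other groups overlapped. The log2 difference from WT was 0.40 ± 0.25 in NFIB/X-dKO (adjusted p = 0.438), -0.04 ± 0.25 in NFIB-cKO (adjusted p = 0.972) and -0.24 ± 0.25 in NFIX-cKO (adjusted p = 0.931). In NFIB/X-dKO against NFIX-cKO edgeR gave 0.46 (adjusted p = 0.398), and without NFIX-cKO 32 it gave 0.74 with an adjusted p of 0.0040. That fit rests on a lone NFIX-cKO library and called 36.4% of all genes.

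Pnpla1 encodes the transacylase that moves linoleic acid onto the hydroxylated ceramide, the step that completes an acylceramide. Pnpla1 was at 1.93 and 1.85 TPM in NFIB/X-dKO, 1.41 and 1.26 TPM in NFIB-cKO and 2.46 and 0.79 TPM in NFIX-cKO, against 1.28 and 0.94 TPM in WT. The 2 NFIX-cKO libraries held both the highest and the lowest value of the 8. No comparison of Pnpla1 passed the test, although without NFIX-cKO 32 edgeR gave 0.87 in NFIB/X-dKO against NFIX-cKO (adjusted p = 0.0181, in the fit that called 36.4% of all genes). Its log2 difference from WT was 0.46 ± 0.32 in NFIB/X-dKO (adjusted p = 0.486), 0.15 ± 0.32 in NFIB-cKO (adjusted p = 0.911) and 0.24 ± 0.32 in NFIX-cKO (adjusted p = 0.965), and 1 NFIX-cKO library decided the sign of the last.

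Ugcg, the glucosylceramide synthase whose product is the form in which acylceramides are packed, was at 9.39 and 7.03 TPM in NFIB/X-dKO, 6.85 and 5.48 TPM in NFIB-cKO and 7.01 and 5.53 TPM in NFIX-cKO, against 7.41 and 7.16 TPM in WT. Its libraries fell within a 1.71-fold range, and both cKO groups lay just below WT without overlap. The log2 difference from WT was 0.14 ± 0.21 in NFIB/X-dKO (adjusted p = 0.723, and -0.02 after median-of-ratios scaling), -0.22 ± 0.21 in NFIB-cKO (adjusted p = 0.762) and -0.20 ± 0.21 in NFIX-cKO (adjusted p = 0.939).

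Abca12 encodes the transporter that loads glucosylceramides into lamellar bodies. Abca12 was at 5.01 and 4.51 TPM in NFIB/X-dKO, 1.58 and 1.08 TPM in NFIB-cKO and 6.36 and 1.77 TPM in NFIX-cKO, against 4.34 and 2.04 TPM in WT. The 4 libraries of the 30s, at 4.34 TPM or more, were all above the 4 libraries of the 80s, at 2.04 TPM or less, whatever the genotype. Its log2 difference from WT was 0.51 ± 0.48 in NFIB/X-dKO (adjusted p = 0.572), -0.80 ± 0.48 in NFIB-cKO (adjusted p = 0.581) and 0.16 ± 0.48 in NFIX-cKO (adjusted p = 0.988). NFIB/X-dKO exceeded NFIB-cKO by 1.31 ± 0.48 (adjusted p = 0.276), all of it between 30s and 80s libraries, and by 0.20 with the number series as a covariate (adjusted p = 0.958). Within 1 number series the WT differences were smaller in size for NFIB/X-dKO (0.11, 30s) and NFIB-cKO (-0.39, 80s), and 0.46 (30s) and -0.13 (80s) for NFIX-cKO. In NFIB/X-dKO against NFIX-cKO edgeR gave 0.08 (adjusted p = 0.955), and 1 NFIX-cKO library decided its sign. It was 1.08 (adjusted p = 0.0018) without NFIX-cKO 32, where 36.4% of all genes were called, and -0.50 (adjusted p = 0.0304) without NFIX-cKO 88, where 9.11% were.

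Alox12b and Aloxe3 encode the lipoxygenases that oxidise the linoleic acid of acylceramides in turn, and they are neighbours on the plus strand of chromosome 11 (Aloxe3 at 69125896 to 69149115, Alox12b at 69156989 to 69169792). Alox12b, which acts first, was at 1.60 and 1.31 TPM in NFIB/X-dKO, 0.91 and 0.53 TPM in NFIB-cKO and 2.11 and 1.05 TPM in NFIX-cKO, against 1.21 and 1.02 TPM in WT. It had the lowest mean TPM of the set over the 8 libraries, with 54 expected counts in NFIB-cKO 85. Pnpla1 was lower than Alox12b in WT 82 (0.94 TPM) and NFIX-cKO 88 (0.79 TPM). Its log2 difference from WT was 0.21 ± 0.27 in NFIB/X-dKO (adjusted p = 0.675), -0.31 ± 0.27 in NFIB-cKO (adjusted p = 0.732) and 0.26 ± 0.27 in NFIX-cKO (adjusted p = 0.937).

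Aloxe3, the partner that turns the hydroperoxide into an epoxyalcohol, did not follow Alox12b. Aloxe3 was at 4.07 and 3.46 TPM in NFIB/X-dKO, 2.07 and 3.15 TPM in NFIB-cKO and 2.71 and 2.51 TPM in NFIX-cKO, against 5.24 and 4.72 TPM in WT. Both WT libraries were above all 6 knockout libraries, and the single knockouts had the same mean, 2.61 TPM, against 4.98 TPM in WT. The log2 difference from WT was -0.33 ± 0.22 in NFIB/X-dKO (adjusted p = 0.459), -0.74 ± 0.22 in NFIB-cKO (adjusted p = 0.204) and -0.73 ± 0.22 in NFIX-cKO (adjusted p = 0.557), so none passed. The non-additive contrast was 1.14 ± 0.31 (adjusted p = 0.441). The mean transcript length that the authors' counting assigned to Aloxe3 ranged from 2454 to 3341 bases over 5 libraries, and its TPM depends on that length. In edgeR's CPM, read counts scaled to library size only, Aloxe3 was at 7.56 and 5.21 in NFIB/X-dKO, against 6.10 and 4.19 in NFIX-cKO, and these overlapped where the TPM values did not.

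**Figure D2:**
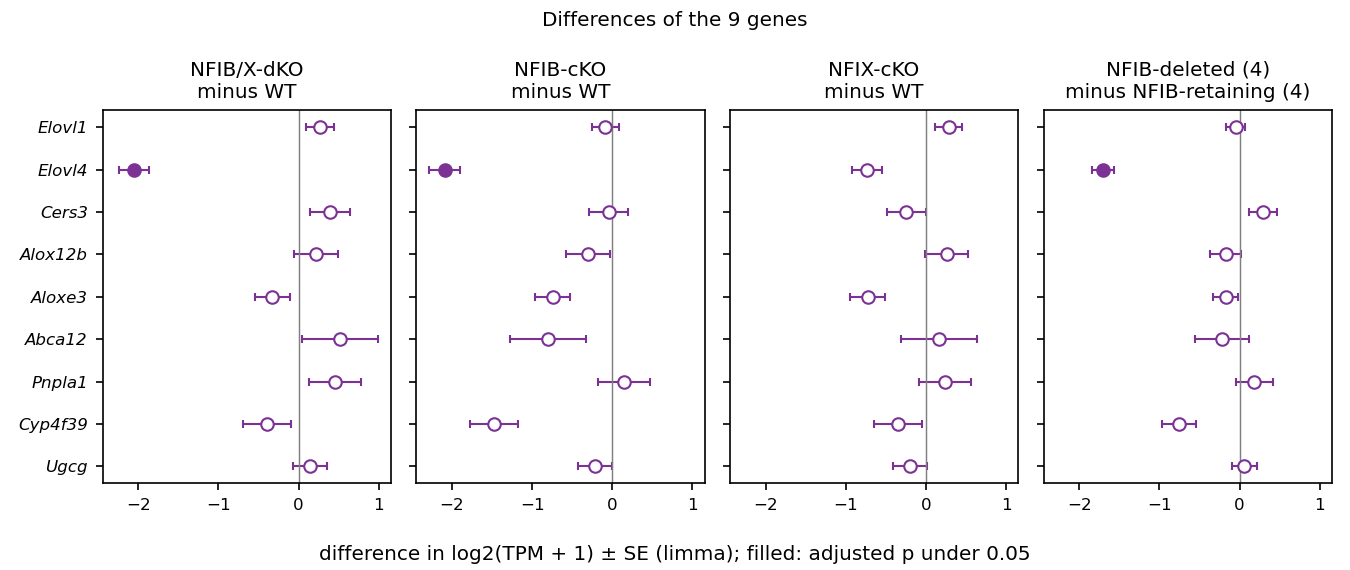
Difference in log2(TPM + 1) ± SE (limma) of the 9 genes in NFIB/X-dKO, NFIB-cKO and NFIX-cKO, each minus WT, and in the 4 NFIB-deleted minus the 4 NFIB-retaining libraries. Filled points have an adjusted p under 0.05: only Elovl4 is filled, at -2.05, -2.09 and -1.71, and its NFIX-cKO point at -0.73 is open.

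Counted over the set, 1 of 9 genes fell and 0 rose in NFIB/X-dKO against WT by limma, where 2.88% of all genes tested passed and 1.26% fell. NFIB-cKO against WT gave 1 that fell and 0 that rose, where 0.719% of all genes passed and 0.428% fell. The NFIB-deleted against the NFIB-retaining libraries gave 1 that fell and 0 that rose, where 2.48% of all genes passed and 0.991% fell. By edgeR, NFIB/X-dKO against NFIX-cKO gave 1 that fell and 0 that rose, where 0.322% of all genes passed and 0.202% fell. Each of these calls was Elovl4. None of the 9 passed limma in NFIX-cKO against WT (0.149% of all genes passed), in NFIB/X-dKO against NFIB-cKO (0.227%) or in the non-additive contrast (0.117%). In those 3 comparisons 2, 2 and 3 of the 9 had an unadjusted p under 0.05, against 6.81%, 17.2% and 9.43% of all genes. For NFIB/X-dKO against WT it was 1 of the 9, against 16.8% of all genes, and for NFIB-cKO against WT 3, against 12.6%.

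Without a test, the signs of the 9 differences were mixed in NFIB/X-dKO against WT (6 positive and 3 negative, median 0.21, against 0.16 over all genes, with Ugcg turning negative after median-of-ratios scaling). In NFIB-cKO against WT 8 of 9 were negative (median -0.31, against 0.0048 over all genes), and in NFIX-cKO against WT 5 of 9 were negative (median -0.20, against -0.05). The groups did not overlap, with the NFIB-cKO libraries lower, for 6 of 9 genes in NFIB-cKO against WT, where 16.6% of all genes did so. In NFIB/X-dKO against WT 5 were higher without overlap and 2 lower, against 38.4% and 17.1% of all genes, and in NFIX-cKO against WT 0 were higher and 3 lower, against 9.64% and 16.2%. Set against NFIX-cKO, NFIB/X-dKO was higher without overlap for 3 of the 9 and lower for 1, against 44.9% and 11.5%. Of the 9 genes 8 were higher without overlap in NFIB/X-dKO than in NFIB-cKO, where 49% of all genes were. In the NFIB-deleted against the NFIB-retaining libraries only Elovl4 had no overlap between the groups, and it lay among the 2.11% of all genes that were lower without overlap. Median-of-ratios scaling moved the median of all genes in NFIB/X-dKO against NFIB-cKO to -0.033 (0.15 on the TPM scale), in the non-additive contrast to -0.060 (0.18) and in NFIB/X-dKO against WT to 0, so the small positive differences of this set in that comparison, at 0.51 or less, are on a scale whose own centre depends on the scaling.

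The animal number split went with the level of some of the 9 genes. In both groups that had 1 library of each series, the 30s library was above the 80s library in TPM for 8 of the 9 genes. This held for 56.7% of all genes, and Elovl4 was the exception. The count depends on the TPM scale. The median-of-ratios factors were 1.087 for WT 34, against 0.903 for WT 82, and 1.047 for NFIX-cKO 32, against 0.859 for NFIX-cKO 88. The WT ratios of Elovl1, Cers3, Alox12b, Aloxe3 and Ugcg, at most 1.186 (Alox12b), were below the ratio of the WT factors. Those of Abca12, Pnpla1 and Cyp4f39 were above it. In NFIX-cKO the ratios of Elovl1 (1.33), Cers3 (1.74), Alox12b (2.01) and Ugcg (1.27) were above the ratio of that group's factors. That of Aloxe3 (1.08) was below it. For Abca12 the 30s value was 2.13 times the 80s value in WT and 3.59 times in NFIX-cKO, and for Pnpla1 the ratios were 1.36 and 3.11. For Elovl4 they were 0.71 and 1.06. Every 30s library was above every 80s library in TPM for 4 of the 9, Elovl1, Cers3, Alox12b and Abca12. The share of all genes that did so was not counted, so this is not read as a trait of the set. A limma fit with genotype and number series as terms called Abca12 alone of the 9 for the series term, lower by 1.11 ± 0.20 in the 80s (adjusted p = 0.0341), where 12.6% of all genes were called lower and 15.8% in either direction.

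Keratins of the suprabasal epidermis moved along the same split. Krt1, a keratin of differentiating epidermis, was at 312 and 361 TPM in NFIB/X-dKO, 72.7 and 67.2 TPM in NFIB-cKO and 444 and 102 TPM in NFIX-cKO, against 216 and 124 TPM in WT. Of 15 suprabasal markers, 13 were higher in TPM in the 30s than in the 80s library of both WT and NFIX-cKO, against 56.7% of all genes. This count too was made without median-of-ratios scaling. The exceptions were Dmkn and Sbsn, and none of the 15 was at 0 in all libraries. The summed TPM of the 15 ranged from 8075 to 8416 in NFIB/X-dKO, 5648 to 5791 in NFIB-cKO and 6040 to 9269 in NFIX-cKO, against 6150 to 6568 in WT. Flg was summed over 8 gene entries that share reads and so is uncertain. Dmkn, the most abundant gene of the list, was at 2213 TPM in WT 34, against 2910 TPM in WT 82. It was at 2533 TPM in NFIX-cKO 32, against 3047 TPM in NFIX-cKO 88. Without Dmkn the sums ranged from 5613 to 5737 in NFIB/X-dKO and 2842 to 2966 in NFIB-cKO. They ranged from 2992.5 to 6736 in NFIX-cKO and 3240 to 4356 in WT. Ly6a, the gene of the Sca-1 antigen that the sort removed, was at 28.7 and 24.4 TPM in NFIB/X-dKO, 7.55 and 6.46 TPM in NFIB-cKO and 37.0 and 10.9 TPM in NFIX-cKO, against 11.9 and 10.3 TPM in WT. Over the 8 libraries the correlation of log2(TPM + 1) with the mean of Krt1 and Krt10 was 0.99 for Abca12, 0.91 for Alox12b, 0.87 for Elovl1, 0.79 for Cyp4f39, 0.75 for Pnpla1, 0.66 for Cers3, 0.66 for Ugcg, 0.35 for Aloxe3 and 0.13 for Elovl4. These are descriptions over 8 libraries of 4 genotypes, and the part of suprabasal cells in the levels of the set was not tested.

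**Figure D3:**
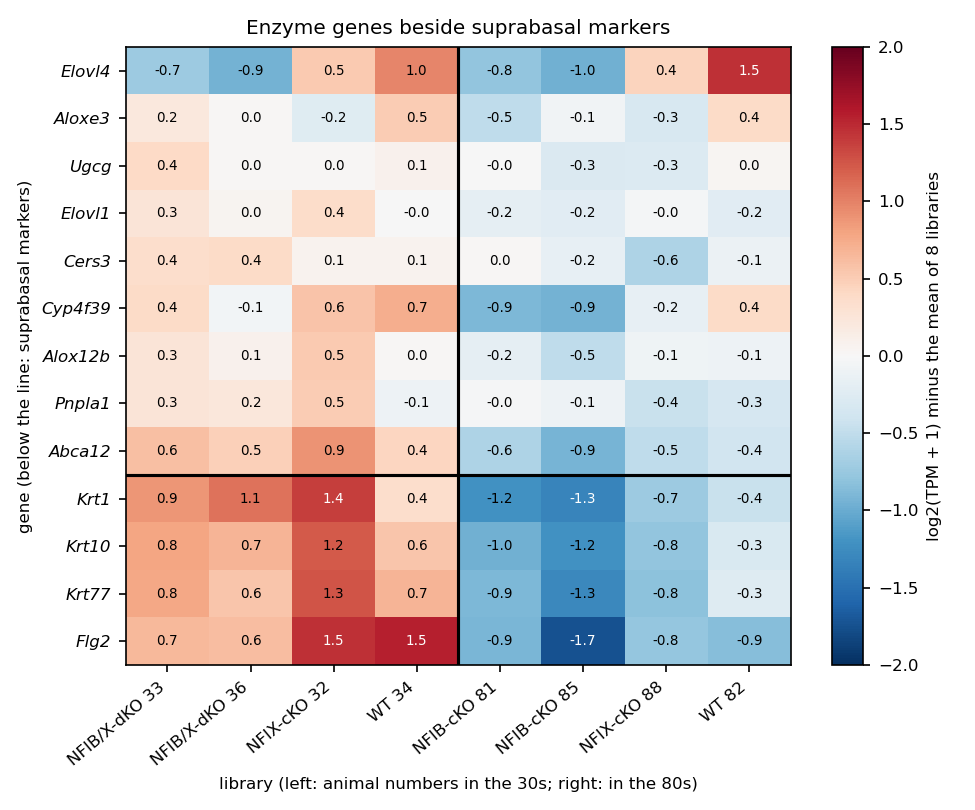
Deviation of log2(TPM + 1) from the mean of the 8 libraries (colour and printed value) for the 9 genes and, below the line, 4 suprabasal genes, with libraries of the 30s left of the vertical line and of the 80s right of it. Abca12, Krt1, Krt10, Krt77 and Flg2 are positive in the 4 libraries on the left and negative in the 4 on the right, whereas Elovl4 is negative in the 4 NFIB-deleted libraries on both sides. The other suprabasal markers of the list are not drawn, and not all of them show this pattern. Dmkn and Sbsn did not, and Krtdap was at 580 TPM in WT 34, against 600 TPM in NFIB-cKO 85.

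Most markers of the sebaceous gland were lower where Elovl4 was lower. Of 10 sebaceous markers, 9 were lower in all 4 NFIB-deleted libraries than in all 4 NFIB-retaining libraries, where 2.11% of all genes were, and none was higher in all 4. None was at 0 in all libraries, and Mc5r was under 1 TPM in every library. The summed TPM of the list ranged from 375 to 379 in NFIB/X-dKO, 306 to 321 in NFIB-cKO and 415 to 437 in NFIX-cKO, against 454 to 595 in WT. Mgst1, the most abundant gene of the list, went the other way in the double knockout, at 314 and 324 TPM in NFIB/X-dKO, 246 and 218 TPM in NFIB-cKO and 260 and 256 TPM in NFIX-cKO, against 243 and 239 TPM in WT. Without Mgst1 the ranges were 54.7 to 61.4 TPM in NFIB/X-dKO, 75.1 to 87.7 TPM in NFIB-cKO and 158 to 177 TPM in NFIX-cKO, against 211 to 356 TPM in WT. Scd1, a desaturase that is abundant in sebocytes, was at 18.2 and 19.1 TPM in NFIB/X-dKO, 26.5 and 33.7 TPM in NFIB-cKO and 81.5 and 64.6 TPM in NFIX-cKO, against 103 and 178 TPM in WT. Mc5r, a receptor of sebocytes, was at 0.05 and 0.07 TPM in NFIB/X-dKO, 0.11 and 0.13 TPM in NFIB-cKO and 0.77 and 0.20 TPM in NFIX-cKO, against 0.82 and 0.58 TPM in WT. The sort was for CD34 and integrin alpha 6 and against Sca-1, and whether sebocytes passed it was not tested. The part of sebaceous cells in the level of Elovl4 was not tested. Some stem cell markers were lower too. Of 10 stem cell markers, 3 were lower without overlap and 0 higher in the NFIB-deleted against the NFIB-retaining libraries. There 2.11% of all genes were lower without overlap. In NFIB/X-dKO against WT 6 were lower and 1 higher, against 17.1% and 38.4% of all genes. In NFIB-cKO against WT 3 were lower, against 16.6% of all genes. Another 4 were higher, and the share of all genes that were higher was not counted. Among these 4 was Sox9, at 182 and 199 TPM in NFIB-cKO, against 143 and 144 TPM in WT. Lhx2, a transcription factor of bulge stem cells, was at 104 and 122 TPM in NFIB/X-dKO, 182 and 189 TPM in NFIB-cKO and 209.9 and 262 TPM in NFIX-cKO, against 291 and 314 TPM in WT. Their part in the level of Elovl4 was not tested either.

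The genes whose pattern over the 8 libraries was most like that of Elovl4 were Acsbg1 (r = 0.99), Elovl6 (r = 0.98) and Plin2 (r = 0.97), taken among genes with a mean of at least 5 TPM. Acsbg1, an acyl-CoA synthetase, was at 17.9 and 17.3 TPM in NFIB/X-dKO, 15.5 and 18.1 TPM in NFIB-cKO and 42.7 and 33.9 TPM in NFIX-cKO, against 51.2 and 72.9 TPM in WT. Plin2, a lipid droplet protein, is also 1 of the 10 sebaceous markers. Abca12 was most like Clca2, Hal and Serpinb7 (r from 0.995 to 0.996). Hal, the histidase of the upper epidermis, was at 17.8 and 17.9 TPM in NFIB/X-dKO, 5.37 and 4.13 TPM in NFIB-cKO and 23.5 and 5.99 TPM in NFIX-cKO, against 16.5 and 8.07 TPM in WT. Alox12b was most like Wfdc21, Calm5 and Nhp2 (r from 0.96 to 0.97), and Cyp4f39 most like Adh1, Tmem97 and Hsd17b12 (r from 0.96 to 0.97). Aloxe3 was most like Zbtb43, Mlxip and Lss (r from 0.92 to 0.98), and Cers3 most like Dstyk, Wdr37 and Ocrl (r from 0.98 to 0.99). Elovl1 was most like Rrp8, Myeov2 and Dhrs13, Pnpla1 most like Mrps26, Echs1 and Pgp, and Ugcg most like Poli, Mtcp1 and Secisbp2. Each r is the highest of many over the same 8 libraries and describes these libraries only. Among the 9 genes themselves, Alox12b and Elovl1 (r = 0.92) and Alox12b and Abca12 (r = 0.92) were most alike, Alox12b and Aloxe3 had r = 0.09, and Elovl4 and Elovl1 had r = -0.02.

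The other genes of the pathway were read from 5 lists of 80 genes, of which 71 were tested by limma and 78 by edgeR. In NFIB/X-dKO against WT 7 of 71 fell and 0 rose, where 1.26% of all genes fell and 2.88% passed, and 3 of the 7 were elongases outside the set. Elovl3, which elongates saturated chains in sebaceous gland and brown fat, was at 0.21 and 0.27 TPM in NFIB/X-dKO, against 12.5 and 20.4 TPM in WT (log2 difference -3.77 ± 0.34, adjusted p = 0.0043). Elovl6, the elongase of palmitate, was at 12.1 and 10.6 TPM in NFIB/X-dKO, against 39.7 and 38.6 TPM in WT (-1.70 ± 0.18, adjusted p = 0.0061). Elovl5, an elongase of polyunsaturated chains, was at 25.5 and 25.6 TPM in NFIB/X-dKO, against 50.1 and 54.8 TPM in WT (-1.01 ± 0.17, adjusted p = 0.0304). In these elongase genes the 2 groups were far apart and did not overlap. Elovl3 is also 1 of the 10 sebaceous markers.

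The 4 other falls in NFIB/X-dKO lay in ceramide genes and 1 regulator. Fa2h, the fatty acid 2-hydroxylase, was at 0.39 and 0.59 TPM in NFIB/X-dKO, against 32.1 and 63.3 TPM in WT (-4.96 ± 0.41, adjusted p = 0.0028). Cers4, a ceramide synthase for shorter chains than those of Cers3, was at 25.8 and 29.3 TPM in NFIB/X-dKO, against 57.7 and 65.5 TPM in WT (-1.13 ± 0.16, adjusted p = 0.0173). Pparg, a nuclear receptor of fat cells and sebocytes, was at 0.19 and 0.20 TPM in NFIB/X-dKO, against 1.92 and 3.55 TPM in WT (-1.61 ± 0.27, adjusted p = 0.0293). Sgms2, a sphingomyelin synthase, was called at -1.28 ± 0.25 (adjusted p = 0.0481) and stayed past the threshold only under median-of-ratios scaling. In the list of acylceramide cofactors and envelope partners 0 of 11 passed limma (2 had an unadjusted p under 0.05, against 16.8% of all genes). The smallest p there belonged to Plpp3 (-1.37 ± 0.29, adjusted p = 0.0608) and Abhd5 (0.72 ± 0.20, adjusted p = 0.139), the cofactor of Pnpla1, which was at 53.6 and 50.9 TPM in NFIB/X-dKO, against 32.2 and 30.6 TPM in WT. The calls of Elovl3 and Fa2h held without any 1 of the 4 libraries, while those of Elovl6, Elovl5, Cers4 and Pparg were lost without NFIB/X-dKO 33 or NFIB/X-dKO 36. Those of Cers4 and Pparg were also lost without WT 82, and that of Elovl5 without WT 34 or WT 82. With all libraries kept, those of Elovl5 (adjusted p = 0.0669) and Pparg (adjusted p = 0.0784) were lost with no filter on low TPM, and that of Pparg with only the groups compared (adjusted p = 0.0640).

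In NFIB-cKO against WT 1 of 71 fell and 0 rose, where 0.428% of all genes fell and 0.719% passed. It was Elovl6, at 14.1 and 10.95 TPM in NFIB-cKO, against 39.7 and 38.6 TPM in WT (-1.58 ± 0.18, adjusted p = 0.0178), and the call was lost without WT 34, NFIB-cKO 81 or NFIB-cKO 85 and with no filter on low TPM (adjusted p = 0.0595). Fa2h (-2.18 ± 0.41, adjusted p = 0.0791), Cers4 (-0.79 ± 0.16, adjusted p = 0.0916), Plpp3 (-1.34 ± 0.29, adjusted p = 0.108), Pparg (-1.10 ± 0.27, adjusted p = 0.134), Acer1 (-1.52 ± 0.48, adjusted p = 0.234), Ephx3 (-0.90 ± 0.29, adjusted p = 0.253) and Sgms2 (-0.76 ± 0.25, adjusted p = 0.259) were among the genes of smallest p in their lists and did not pass. Acer1 encodes the alkaline ceramidase of differentiating keratinocytes, and Ephx3 an epoxide hydrolase that acts after Aloxe3. For NFIX-cKO against WT limma called 0 of 71, of which 4 had an unadjusted p under 0.05, against 6.81% of all genes. The genes of smallest p in their lists there were Elovl5 (-0.59 ± 0.17), Fasn, Fa2h, Cers4, Sgms2, Asah2, Plpp3, Tgm1, Klf4 and Tfap2a, with differences between -1.08 (Klf4) and 0.41 (Tgm1) and adjusted p between 0.528 and 0.814.

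In the NFIB-deleted against the NFIB-retaining libraries 6 of 71 fell and 0 rose, where 0.991% of all genes fell and 2.48% passed: Elovl6 (-1.43 ± 0.13, adjusted p = 0.0043), Elovl3 (-2.70 ± 0.24, adjusted p = 0.0046), Fa2h (-3.09 ± 0.29, adjusted p = 0.0050), Cers4 (-0.78 ± 0.11, adjusted p = 0.0197), Pparg (-1.18 ± 0.19, adjusted p = 0.0287) and Elovl5 (-0.69 ± 0.12, adjusted p = 0.0357). Elovl6, Elovl3 and Fa2h stayed past the threshold without any 1 library. Cers4 was lost without NFIB/X-dKO 33, NFIB/X-dKO 36, NFIB-cKO 81, NFIB-cKO 85 or NFIX-cKO 88, Pparg without those or NFIX-cKO 32, and Elovl5 without any 1 library. With no filter on low TPM Pparg (adjusted p = 0.0788) and Elovl5 (adjusted p = 0.0808) were lost, and Elovl5 also with no variance trend (adjusted p = 0.0506). Of the fatty acid elongation list 3 of 14 fell, with a median of -0.23 against 0.10 over all genes. Of the ceramide synthesis list 2 of 16 fell, with a median of 0.10. Of the list of glucosylceramide, sphingomyelin and ceramide turnover 0 of 14 passed. In it 1 had an unadjusted p under 0.05, against 15.4% of all genes. Of the cofactor list 0 of 11 passed, and 3 had such a p. Named from these lists as not past the test were Plpp3 (-1.02 ± 0.20, adjusted p = 0.0534), Sgms2 (-0.74 ± 0.18, adjusted p = 0.0918), Abhd5 (0.52 ± 0.14, adjusted p = 0.134) and Acer1 (-0.77 ± 0.34, adjusted p = 0.340).

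Between NFIB/X-dKO and NFIX-cKO edgeR called 2 of 78, where 0.322% of all genes passed, Elovl6 (log2 fold change -1.61, adjusted p = 0.0457) and Elovl3 (-5.92, adjusted p = 0.0457). Both calls were lost without NFIB/X-dKO 33 or NFIB/X-dKO 36. Not past the test were Fa2h (-5.99, adjusted p = 0.0642), Pparg (-3.41, adjusted p = 0.0672), Sgms2 (-1.07, adjusted p = 0.0880), Plpp3 (-0.99, adjusted p = 0.144), Cers4 (-0.85, adjusted p = 0.169), Cebpa (-0.77, adjusted p = 0.180), Sgms1 (0.53, adjusted p = 0.189) and Abhd5 (0.29, adjusted p = 0.299). Between NFIB/X-dKO and NFIB-cKO limma called 0 of 71, of which 20 had an unadjusted p under 0.05, against 17.2% of all genes. Fa2h, at 0.39 and 0.59 TPM in NFIB/X-dKO, against 7.40 and 11.4 TPM in NFIB-cKO, had the smallest (-2.78 ± 0.41, adjusted p = 0.0796). The other genes of smallest p were Elovl3, Hacd1, Cers5, Acer3, Asah1, Sult2b1, Ephx3, Trp63 and Cebpb, with differences between -1.74 (Elovl3) and 1.01 (Sult2b1) and adjusted p between 0.178 and 0.276. In the non-additive contrast limma called 0 of 71, of which 7 had an unadjusted p under 0.05, against 9.43% of all genes, and Fa2h, Elovl3, Hacd2, Cers5, Acer1, Asah1, Ephx3, Lipm and Trp63 lay between -1.82 (Fa2h) and 1.495 (Acer1) with adjusted p between 0.502 and 0.537.

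**Figure D4:**
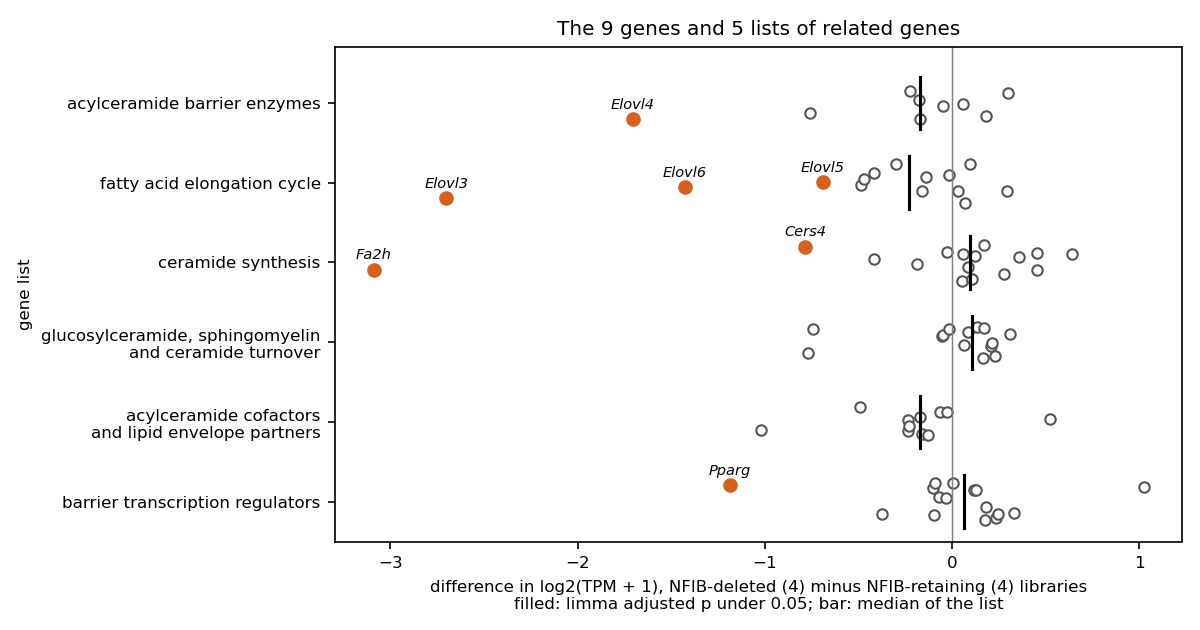
Difference in log2(TPM + 1) of the NFIB-deleted (n = 4) minus the NFIB-retaining libraries (n = 4) for each tested gene of the set (top) and of 5 lists of related genes, with bars for list medians. Filled points have a limma adjusted p under 0.05: Elovl4 in the set, and Elovl3, Elovl6, Elovl5, Fa2h, Cers4 and Pparg in the lists, all below 0.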

How the data were processed

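The authors deposited 1 table of TPM, a unit per transcript length and library total, for all 8 libraries. Expected counts were read from gene tables the authors deposited, for 5 libraries (both NFIB/X-dKO, NFIB-cKO 85 and both NFIX-cKO). The submitters' processing notes name RSEM 1.2.30, Bowtie2 2.2.9 and mm10 (GRCm38), and other steps are not given in the sources used here. TPM keeps no depth, so for WT 34, WT 82 and NFIB-cKO 81 the depth is unknown. Libraries were grouped by title and, carrying different animal numbers, taken as separate animals. The 9 genes and all lists were chosen with earlier results of these data known.

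From the deposited TPM, log2(TPM + 1) was tested with limma 3.58.1 (R 4.3.3; pseudocount 1, variance trend, all 8 libraries in 1 fit, 4 residual and 3.10 prior degrees of freedom), for 15434 genes with at least 1 TPM in at least 2 libraries, with Benjamini-Hochberg adjustment over all of them and a threshold of 0.05. The log2(TPM + 1) scale understates the change of low genes. NFIB/X-dKO against NFIX-cKO was tested with edgeR 4.0.16 (quasi-likelihood, TMM, filterByExpr) on the deposited expected counts, rounded, for 18349 genes; DESeq2 1.42.0 was an alternative. Both steps were tested on simulated data. All 9 genes were named in every comparison; of each pathway list, up to 4 genes past the test with the smallest p or, where none passed, up to 2 as not past it; and for each gene the 3 most correlated genes with a mean TPM of at least 5. A regulator that this rule names is not reported here. Alternatives were the pseudocount, filters, scaling, trend, number series as covariate, only the groups compared, other count tools and leaving out each library. Coordinates came from GENCODE M21 and promoter sequences from RefSeq (GRCm38.p6).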

Additional observations from a re-analysis of the deposited data

How the results depend on the processing

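With 2 libraries a group, p-values rest on 4 residual degrees of freedom, and expected counts as low as 54 limit Alox12b. WT differs from the knockouts by Cre and the YFP gate too, and NFIB/X-dKO and NFIB-cKO share no animal number series. No paired analysis was possible because the groups share no replicate numbers. Leaving out 1 library tests a lone library as if it varied like the other groups. Fitting only the groups compared is the same fit for the NFIB-deleted against NFIB-retaining comparison and the non-additive contrast. The alternatives were planned, and where a value changed the cause was not tested, except that leaving out a library leaves fewer samples.

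Of the values for single genes, 466 kept direction and side of the threshold under settings that kept all libraries, 12 lost and 3 gained a call, 12 changed sign and 20 moved by more than the replicate spread in 1 number series. Median-of-ratios scaling turned Ugcg to -0.020 in NFIB/X-dKO against WT and to -0.037 in NFIB-deleted against NFIB-retaining libraries, Elovl4 to -0.15 in NFIB/X-dKO against NFIB-cKO, and Elovl1 to -0.19 and Pnpla1 to -0.087 in the non-additive contrast. It also changed the split of genes that rose and fell to 199 and 243 (250 and 195 as reported) for NFIB/X-dKO against WT, and for NFIB-deleted against NFIB-retaining libraries to 145 and 176 (229 and 153 as reported). The number series as a covariate turned Abca12 to -0.041 in NFIB/X-dKO against WT, Elovl1 to 0.068 and Cers3 to 0.17 in NFIB-cKO against WT, Pnpla1 to -0.28 in NFIB/X-dKO against NFIB-cKO, and Elovl1 to -0.24, Alox12b to -0.10 and Pnpla1 to -0.53 in the non-additive contrast.

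Without a filter on low values the count of genes past the threshold was 270 in NFIB/X-dKO against WT (445 as reported), 29 in NFIB-cKO against WT (111), 210 in NFIB-deleted against NFIB-retaining libraries (382), 202 in NFIB/X-dKO against NFIX-cKO (59), 71 in NFIB/X-dKO against NFIB-cKO (35) and 61 in the non-additive contrast (18). With the covariate it was 200 in NFIB-cKO against WT, 44 in NFIX-cKO against WT (23), 1214 in NFIB-deleted against NFIB-retaining libraries (2 of the 9 genes, Elovl4 and Cyp4f39) and 22 in NFIB/X-dKO against NFIB-cKO. Fitting only the groups compared gave 12 in NFIX-cKO against WT and 3086 in NFIB/X-dKO against NFIB-cKO (2 of the 9, Abca12 and Cyp4f39). A pseudocount of 0.1 gave 23 in NFIB/X-dKO against NFIB-cKO and 9 in the non-additive contrast. For NFIB/X-dKO against NFIX-cKO limma gave 121 and DESeq2 839.

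Leaving out 1 library at a time, the count of genes and of the 9 ranged from 40 to 350 (0 to 1 of the 9) in NFIB/X-dKO against WT, 11 to 147 (0 to 1) in NFIB-cKO against WT, 14 to 18 in NFIX-cKO against WT, 63 to 372 in NFIB-deleted against NFIB-retaining libraries, 8 to 12 in NFIB/X-dKO against NFIB-cKO and 6 to 16 in the non-additive contrast. The range was widest for NFIB/X-dKO against NFIX-cKO, 0 to 6939 (0 to 4 of the 9). There edgeR called 0 genes without NFIB/X-dKO 33 or NFIB/X-dKO 36 (813 and 811 with an unadjusted p under 0.05), 1741 without NFIX-cKO 88 and 6939 without NFIX-cKO 32. The log2 differences whose sign changed with a left-out library ranged, in NFIB/X-dKO against WT, from -0.045 to 0.33 for Ugcg. In NFIB-cKO against WT they ranged from -0.19 to 0.020 for Elovl1 and -0.13 to 0.046 for Cers3. In NFIX-cKO against WT they ranged from -0.59 to 0.097 for Cers3, -0.044 to 0.56 for Alox12b, -0.54 to 0.87 for Abca12, -0.23 to 0.72 for Pnpla1 and -0.72 to 0.020 for Cyp4f39. In NFIB-deleted against NFIB-retaining libraries they ranged from -0.15 to 0.051 for Elovl1, -0.58 to 0.13 for Abca12, -0.055 to 0.42 for Pnpla1 and -0.033 to 0.15 for Ugcg. For NFIB/X-dKO against NFIX-cKO they ranged from -0.65 to 0.073 for Alox12b, -0.058 to 0.43 for Aloxe3, -0.50 to 1.08 for Abca12, -0.49 to 0.87 for Pnpla1, -0.58 to 0.035 for Cyp4f39 and -0.021 to 0.086 for Ugcg. For Elovl4 in NFIB/X-dKO against NFIB-cKO the range was -0.071 to 0.15. In the non-additive contrast it was -0.13 to 0.27 for Elovl1, -0.038 to 0.56 for Alox12b and -0.41 to 0.54 for Pnpla1.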
